A study of Homo sapiens with 25 samples.

Results

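A set of 1146 genomic regions where tagged FOXD2 was mapped without any peak of 3 histone marks, called unmarked sites here, was described. The regions were chosen by merging the 4 peak lists of tagged FOXD2 and keeping merged regions that all 4 lists held and that no peak of H3K4me1, H3K27ac or H3K4me3 touched in any of 10 histone lists. Of 91522 merged regions, 5399 were held by all 4 tag lists and are called tag sites. The unmarked sites made up 21.2% of these (95% Wilson interval 20.2 to 22.3), and the other 4253 tag sites carried a histone peak in at least 1 list. Tag peaks and histone peaks over a site therefore served to choose it, and those values are given as descriptions.

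The cells were HCT116, an established human colorectal carcinoma line. Control cells carried the empty pSin lentiviral vector and FOXD2 cells carried pSin with the full FOXD2 coding sequence, and both were kept under puromycin. H3K4me1 and H3K27ac were each profiled by ChIP-seq in 2 control and 2 FOXD2 libraries, H3K4me3 in 1 library per group, and the methyltransferase MLL4 in 2 libraries per group. The tag libraries came from HCT116 cells given the plasmid pcDNA3.1-FOXD2-3xflag-6xhis, with 2 libraries precipitated through the 6xHis tag and 2 through FLAG. The series has no histone or MLL4 library from these tagged cells. Unmarked thus refers to peaks called in the pSin cells. Histone marks were taken from native chromatin cut with MNase, whereas the tags and MLL4 were taken from formaldehyde-crosslinked, sonicated chromatin. FOXD2 was supplied from a vector in both designs, and the series has 1 input for the tags and lacks tag ChIP from untagged cells. Whether a peak shared by all 4 tag lists marks FOXD2 or a background common to these libraries was therefore not tested. The labels do not say that replicates were separate cultures, so their spread may be technical.

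FOXD2 belongs to the forkhead family of transcription factors, which contact DNA through a winged helix domain and in several cases open compact chromatin. H3K4me1 marks enhancers, H3K27ac marks active enhancers and promoters, and H3K4me3 marks the promoters of active genes. MLL4, the product of KMT2D, places H3K4me1 at enhancers, and forkhead factors are among the proteins known to bring it to DNA. A site bound by a factor but free of these marks lies outside the usual picture of a promoter or an enhancer.

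The lists of all libraries together gave the following frame. The tag lists held between 26942 and 48194 peaks, the H3K4me1 lists 95756 to 129887, the H3K27ac lists 85122 to 141008, the H3K4me3 lists 22975 and 24528, and the MLL4 lists 4676 to 22493. Read depth is unknown, so a site without a histone peak is one where none was called, not one shown to lack the mark. Of 12 colon epithelial markers, 6 carried H3K4me3 within 1 kb of a gene end in both lists, namely EPCAM, CDH1, KRT8, KRT18, CDX2 and LGR5, while VIL1, KRT20, CEACAM5, CDX1, GPA33 and KLF5 lacked it in at least 1 list. The same held for 5 of 18 blood markers, 8 of 16 neural markers and 3 of 16 markers of fibroblasts and endothelium. Those with it included CD4, CD8A and SPI1 of the blood list, SNAP25, RBFOX3, TUBB3 and MAP2 of the neural list and COL1A1 of the fibroblast and endothelial list, and those without it included PTPRC, GFAP and PECAM1. The share was 50% for the colon list and 50% for the neural list. The FOXD2 gene held no peak in any tag list, so it gave no unmarked site.

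The reference used here holds gene start windows, from 250 bases before to 50 after an annotated start site, and miRNAs, but no whole genome. Only 2 unmarked sites (0.175%) reached into such a window, against 760 (17.9%) of the other tag sites. Of those 760, 718 had H3K4me3 in both lists, which the rule bars, so this contrast largely follows from the choice of sites. Among tag sites with H3K4me1 in all 4 lists and no H3K4me3, 1.74% reached into one. The overlapping parts of the 2 unmarked sites are shown because they are the start-site sequence that unmarked sites contain. Both windows belong to uncharacterised loci: one lies in the unmarked site at EIF2B1, a translation factor subunit gene, and the other in an unmarked site within RPTOR, which encodes a scaffold of the mTOR complex. All sequences are RefSeq, build GRCh38.p14, written 5′ to 3′ along the strand named. Capitals mark a match to any of 8 short motifs that are spelled out in the next paragraph.
LOC105370041 (chr12:123617713-123618012, minus strand): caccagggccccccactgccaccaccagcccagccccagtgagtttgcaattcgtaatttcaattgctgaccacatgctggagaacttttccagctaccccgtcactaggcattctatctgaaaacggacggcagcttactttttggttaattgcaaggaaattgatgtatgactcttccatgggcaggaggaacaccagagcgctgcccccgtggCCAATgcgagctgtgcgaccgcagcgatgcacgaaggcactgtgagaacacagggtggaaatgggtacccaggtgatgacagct
LOC105371922 (chr17:80587059-80587211, minus strand): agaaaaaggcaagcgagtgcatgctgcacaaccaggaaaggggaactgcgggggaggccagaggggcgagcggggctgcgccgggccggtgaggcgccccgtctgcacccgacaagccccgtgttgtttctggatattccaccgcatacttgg
The next 4 windows belong to genes of the best ranked unmarked sites and carried H3K4me3 in both lists. They are shown to set the marked start of each gene beside the unmarked sites farther inside it, and these genes were picked after their values were seen.
HSPH1 (chr13:31162339-31162638, minus strand): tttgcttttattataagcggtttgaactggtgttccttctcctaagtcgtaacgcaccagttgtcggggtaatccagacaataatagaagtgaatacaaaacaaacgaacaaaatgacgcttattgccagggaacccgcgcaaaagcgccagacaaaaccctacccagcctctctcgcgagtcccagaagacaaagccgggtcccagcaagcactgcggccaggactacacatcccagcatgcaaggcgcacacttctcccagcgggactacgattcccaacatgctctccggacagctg
HSPA9 (chr5:138575352-138575651, minus strand): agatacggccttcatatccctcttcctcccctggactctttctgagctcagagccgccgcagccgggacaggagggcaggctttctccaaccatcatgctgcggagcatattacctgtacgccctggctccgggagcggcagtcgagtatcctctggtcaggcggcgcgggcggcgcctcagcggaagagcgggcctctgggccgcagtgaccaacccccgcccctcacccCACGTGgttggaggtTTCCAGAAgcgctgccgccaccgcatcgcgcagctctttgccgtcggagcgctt
DNAJA1 (chr9:33025023-33025322, plus strand): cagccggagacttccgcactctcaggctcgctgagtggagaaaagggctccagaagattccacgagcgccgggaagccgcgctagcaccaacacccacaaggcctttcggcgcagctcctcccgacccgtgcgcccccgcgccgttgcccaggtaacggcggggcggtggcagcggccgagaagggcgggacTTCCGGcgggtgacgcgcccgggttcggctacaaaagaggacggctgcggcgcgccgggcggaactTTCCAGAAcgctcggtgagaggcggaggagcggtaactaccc
RSRC2 (chr12:122526887-122527186, minus strand): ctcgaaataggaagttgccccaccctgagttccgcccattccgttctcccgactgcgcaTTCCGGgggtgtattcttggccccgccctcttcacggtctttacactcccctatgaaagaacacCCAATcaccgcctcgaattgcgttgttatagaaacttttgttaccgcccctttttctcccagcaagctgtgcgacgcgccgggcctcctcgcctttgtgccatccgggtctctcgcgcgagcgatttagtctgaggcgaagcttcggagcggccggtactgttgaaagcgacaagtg
A further 3 unmarked sites contained a miRNA gene. The mature 5p strand of let-7d and 3p strand of miR-103a are shown as sequence that lies wholly inside an unmarked site, with the seed, bases 2 to 8, in capitals.
hsa-let-7d-5p (chr9:94178841-94178862, plus strand): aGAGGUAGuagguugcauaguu
hsa-miR-103a-3p (chr20:3917541-3917563, plus strand): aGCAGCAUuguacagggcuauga

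The motifs were searched on both strands. They were the forkhead core TGTTTAC, its loose form TGTTTNC (which includes the core), the heat shock factor pair TTCNNGAA, the AP-1 site TGANTCA, the cAMP response element TGACGTCA, the CCAAT box CCAAT, the ETS site CCGGAA and the E-box CACGTG. A match describes letters and not a bound site. HSPA9 carried a heat shock pair starting 4 bases before its start site and an E-box starting 19 bases before it. DNAJA1 carried a heat shock pair starting 8 bases after its start site and an ETS site starting 58 bases before it. RSRC2 carried an ETS site and a CCAAT box, and the HSPH1 window matched none of the 8. The start window of EWSR1, also a gene of a best ranked site but not printed, matched none either. Of 745 genes with an unmarked site, 601 had a window and 568 had one with H3K4me3 in both lists, which gave 730 windows. The heat shock pair was in 7.67% of these (95% Wilson interval 5.95 to 9.83), in 5.62% of all 12979 coding-gene windows with H3K4me3, and in 7.73% of all 34961 windows. The ETS site was in 37.9% (34.5 to 41.5), against 30.01% and 17.3%, and in 26.7% of the marked windows of genes with other tag sites only. The CCAAT box was in 36.3%, against 34.7% and 34.6%. The E-box was in 11.9%, against 10.1% and 7.27%, and the cAMP response element in 3.42%, against 3.07% and 1.85%. The forkhead core was in 1.92% of the windows (1.15 to 3.19), against 2.13% and 3.42%, and its loose form in 11.6%, against 11.2% and 18.0%. The AP-1 site was in 4.11%, against 4.16% and 7.68%. These windows lie away from nearly all unmarked sites, so the shares describe the genes' start sites only, and the sequence under the unmarked sites was not analysed here.

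HSPH1 gave the clearest single picture. It encodes a large heat shock protein that helps HSP70 release its client proteins, and it held the 2 unmarked sites at ranks 3 and 6 of all tag sites, when sites were ordered by their ranks of −log10 q added over the tag lists. The gene spans chr13:31134973-31162388 on the minus strand. The better ranked site, chr13:31141908-31143070, lay 19.9 kb from the 5′ end and 10.9 kb from the nearest histone peak. The authors' deposited fold enrichments at it were 9.97 and 8.66 in the 6xHis lists and 10.3 and 7.67 in the FLAG lists. The next, chr13:31149695-31151147, had deposited folds of 7.42 and 11.9 for 6xHis and 7.23 and 8.19 for FLAG. Of its 5 unmarked sites, 4 lay inside the gene and 1 began 364 bp past its 3′ end. H3K4me3 formed a single peak at the 5′ end in either H3K4me3 library, reaching 2.04 and 2.02 kb into the gene. Within the gene, no H3K4me1 or H3K27ac peak of any library reached beyond 8.43 kb from the 5′ end, while the unmarked sites began at 11.2 kb. Tag peaks continued along the whole gene, with 10 and 11 in the 6xHis lists and 9 in either FLAG list, and they covered 33.9%, 21.96%, 32.6% and 24.1% of it.

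**Figure D1:**
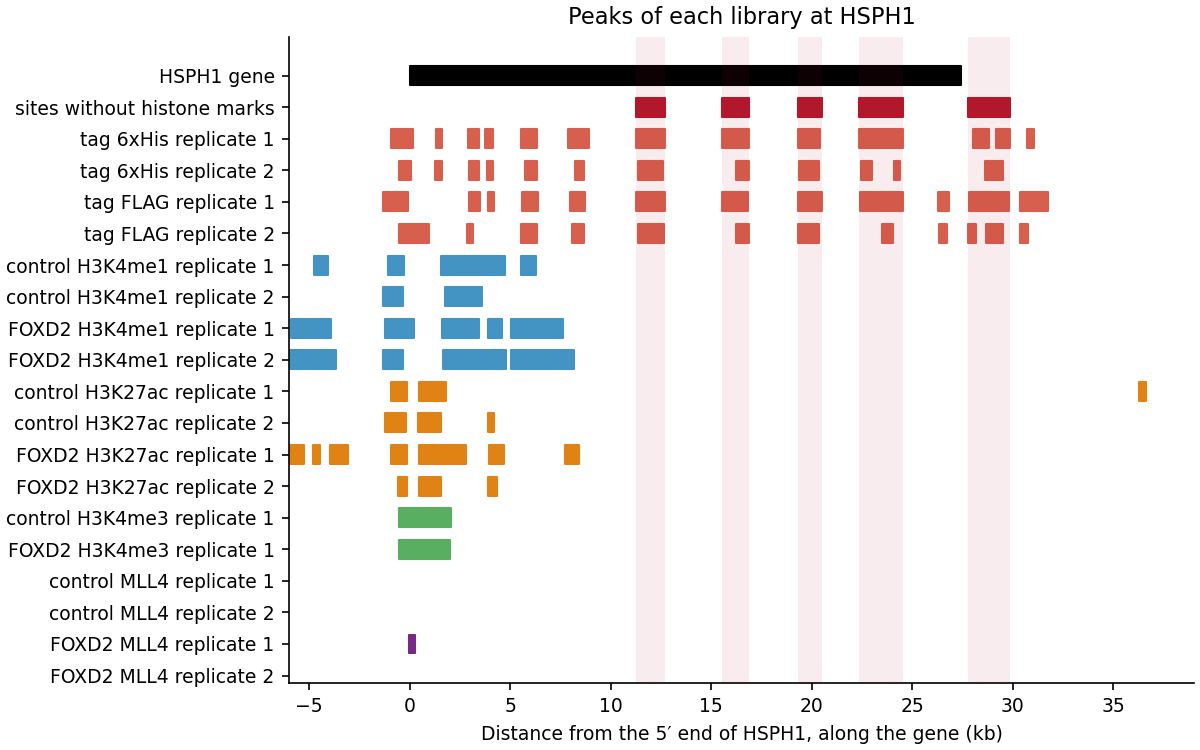
Peaks of all 18 libraries along HSPH1, drawn by distance from the gene's 5′ end in kb; each bar is 1 peak of the library named at the left, the black bar is the gene and shaded columns are the 5 unmarked sites. Tag peaks run from the 5′ end past the 3′ end, whereas histone peaks within the gene end 8.43 kb into it.

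Most unmarked sites lay, like those of HSPH1, inside genes. A protein-coding gene contained or overlapped 1046 of the 1146 (91.3%, 95% Wilson interval 89.5 to 92.8), against 71.7% of the other tag sites and 66.7% of H3K4me1 sites. H3K4me1 sites are the 1324 tag sites with H3K4me1 in all 4 lists and no H3K4me3. The unmarked sites were also far from gene ends. Of them, 955 (83.3%, 81.1 to 85.4) were more than 2 kb away from either end of all annotated genes, against 57.6% of the other tag sites and 80.6% of H3K4me1 sites. The remaining 100 lay outside protein-coding genes, and 82 of these had one within 100 kb, at a median of 8418 bp. Intervals here and below cover the counting of regions only. A width of 1138 bp was the median of the unmarked sites, with quartiles of 799 and 1668 bp and a range of 360 to 12946 bp, against a median of 1232 bp for the other tag sites.

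Along their host genes, the unmarked sites were spread over nearly the whole length. Strand was known for 828 of the 1046 sites within genes, and these lay at a median of 50.8% of the gene from the 5′ end, with quartiles of 29.8% and 71.6%. Their median distance was 19.9 kb from the 5′ end and 21.5 kb from the 3′ end. With each gene cut into 10 equal bins from 5′ to 3′, bin 1 held 4.59% of them (3.36 to 6.24) and every other bin 8.33% to 13.2%. A low share in bin 1 follows in part from the choice, because marked promoters sit there. By contrast, 69.6% of the 1062 H3K4me3 sites in such genes lay in bin 1. H3K4me1 sites held an intermediate place, with 11.8% in bin 1 and a median at 36.8% of genes that were longer, 97.7 kb in the median against 45.7 kb for unmarked sites.

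**Figure D2:**
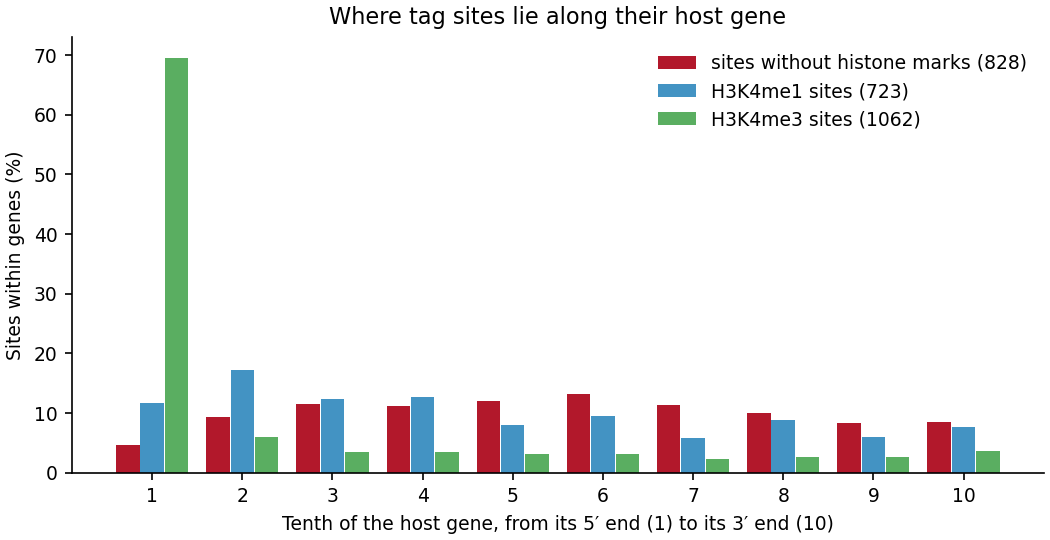
Share of tag sites (percent of the sites of a class that lie in a gene of known strand) in each of 10 equal bins of the host gene, from 5′ to 3′; bars show 828 unmarked sites, 723 H3K4me1 sites and 1062 H3K4me3 sites. H3K4me3 sites pile up in bin 1 at 69.6%, and unmarked sites hold 4.59% there and 8.33% to 13.2% in every other bin.

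The unmarked sites fell at 745 genes, when each was given to its closest protein-coding gene (up to 100 kb away), and these are 3.73% of 19974. Of these genes, 530 had 1 unmarked site, 86 had 3 or more and 22 had 5 or more, and 500 sites (43.6%) lay within 10 kb of another unmarked site. MED13, which links the kinase module to Mediator, and DDX42, an RNA helicase of the spliceosome, had the most, with 8 each. RSRC2, IARS1 and CHUK had 7 each. IARS1 is the cytosolic isoleucyl-tRNA synthetase and CHUK a kinase of the NF-κB pathway. MDM2, the ubiquitin ligase of p53, OGA, the enzyme that removes O-GlcNAc, COPS3 of the COP9 signalosome and MED17 of Mediator had 6 each. HSPH1 was 1 of 13 genes with 5. MED13 and DDX42 lie between 60 and 70 Mb on chromosome 17, which held 44 unmarked sites (3.84%) for 0.391% of genes. CHUK and OGA lie between 100 and 110 Mb on chromosome 10, which held 26 (2.27%) for 0.391% of genes. The part of copy number in these counts was not tested. Several of these counts depended on the settings. With stricter tag peaks (−log10 q of 5 or more), MED13 and IARS1 had 3 each, COPS3 2, CHUK 1 and MED17 0. With peaks joined across 500 bp, RSRC2 had 2. With no histone peak allowed within 5 kb, RSRC2 and OGA had 3 each, COPS3 had 2, and MED13 and MDM2 had 1 each. At equal list lengths IARS1 had 4 and MED17 3. Without 6xHis replicate 2 or FLAG replicate 2, the rule gave sites at 1238 and 1503 genes. CHUK, COPS3, MED17 and RSRC2 had no tag site other than unmarked ones, whereas MDM2 had 7 and MED13 had 6 others.

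In 3 of these genes with high coverage, picked after their values were seen, tag peaks covered more of the gene than histone peaks did. Tag peaks covered 61.9% and 46.0% of RSRC2 in the 6xHis lists and 52.9% and 40.1% in the FLAG lists, while H3K4me1 covered 7.81% to 13.1% and H3K4me3 5.62% and 7.00% of it. HSPA9, the mitochondrial HSP70, was covered by tag peaks over 67.3%, 46.3%, 67.4% and 57.3%, and its 5 unmarked sites together spanned 13.8 kb of a gene of 21.6 kb. In DDX42 the tag lists covered 27.9% to 51.95% and H3K4me1 covered 18.6% to 24.97%. In these genes the tag peaks were repeated along the gene.

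To see whether the genes with unmarked sites also drew tag peaks elsewhere, peaks outside all tag sites were counted. The genes with an unmarked site had a median of 6 and 2 such peaks in the 6xHis lists and 5 and 3 in the FLAG lists. The 2250 genes with other tag sites only, which were slightly longer (median 56.1 against 48.9 kb), had 2 and 1 for 6xHis and 2 and 1 for FLAG. Per 10 kb of gene the medians were 1.10, 0.363, 0.873 and 0.651 peaks in genes with unmarked sites, against 0.323, 0.124, 0.247 and 0.143. Every tag library showed the higher density at genes with an unmarked site. These lists also supplied the sites, so the difference is a description.

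The ends of the genes with an unmarked site were mostly marked. H3K4me3 lay within 1 kb of a gene end in both lists at 688 of the 745 (92.3%, 90.2 to 94.0), against 61.5% of all protein-coding genes, 84.9% of genes with other tag sites only and 57.1% of genes with no tag site. H3K27ac lay there in all 4 lists at 88.3%, against 80.4% of genes with other tag sites only and 60.0% of all genes. An MLL4 peak of at least 1 list lay there at 60.0%, against 60.3% and 42.9%. A tag site lay at an end of 28.5% of the genes with an unmarked site and of 41.5% of genes with other tag sites only. All genes of the latter class held a tag site with a histone peak, whereas 372 of the 745 held unmarked sites only. The grouping itself thus shapes this contrast. Ends of genes with an unmarked site carried promoter marks more often than those of genes in general, although most unmarked sites sat inside the genes.

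Histone peaks lay within a few kb of most unmarked sites. The nearest histone peak of any list was at a median of 3138 bp, with 262 sites under 1 kb, 758 under 5 kb and 152 over 10 kb from one. H3K4me1 was nearest at a median of 4649 bp and H3K27ac at 5226.5 bp, with H3K4me3 at 14847 bp. At the edge of the rule, the closest unmarked site lay 10 bp from a histone peak, at CDC123, and the next 13 bp, at CYP4V2. Just outside it, the site at DIO3 overlapped histone peaks by 1 bp, that at NIPAL2 by 10 bp and that at EIF1 by 12 bp. The 10 histone lists sorted tag sites toward both extremes. A single list touched 257 tag sites, and all 10 touched 1323, so 1146 sites with none and 1323 with all were the most frequent counts.

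The next comparison asked whether the chromatin beside unmarked sites differed between control and FOXD2 cells. H3K4me1 lay within 5 kb of 34.6% and 28.7% of unmarked sites in the control libraries and of 41.3% and 45.0% in the FOXD2 libraries. Both FOXD2 libraries were above both control libraries, as they were within 1 kb, at 9.08% and 12.04% against 6.98% and 4.80%, and within 10 kb, at 68.6% and 71.03% against 62.7% and 56.3%. The means were 31.6% ± 4.1 in control and 43.2% ± 2.7 in FOXD2 libraries (SD, n = 2), a difference of 11.5 points with an exact two-sided permutation p of 0.33 and an adjusted p of 0.50 over 6 comparisons. The smallest p that 2 libraries against 2 can give is 0.33, so no such difference can pass. At other tag sites the shares within 5 kb were near their ceiling, at 94.5% ± 1.4 in control and 97.6% ± 0.18 in FOXD2 libraries (SD, n = 2). Both FOXD2 libraries were above both control libraries there as well. Within 1 kb of other tag sites the shares were 93.6% and 94.7% against 90.6% and 87.0%, and within 10 kb 98.97% and 99.04% against 97.8% and 97.1%. The order of the groups was thus not particular to unmarked sites. H3K4me1 was near an unmarked site in both FOXD2 lists and neither control list at 91 sites (7.94%), beside 3.26% of all tag sites, and in the reverse pattern at 8 (0.698%), beside 0.37%. The first pattern requires that both control lists lack H3K4me1 near the site. Control replicates 1 and 2 had it near 95.5% and 93.5% of the other tag sites, so few of those could show the pattern. The shares therefore do not show that it was commoner at unmarked sites. The FOXD2 lists of H3K4me1 are longer (114893 and 129887 peaks against 101204 and 95756). With lists shortened to equal length the difference was 6.06 points, and list length and group cannot be told apart in the deposited lists.

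H3K27ac gave a similar order with more spread. It lay within 5 kb of 23.3% and 16.8% of unmarked sites in control and 26.5% and 36.0% in FOXD2 libraries, and at this distance the groups did not overlap. The means were 20.1% ± 4.6 and 31.2% ± 6.7 (SD, n = 2), a difference of 11.2 points (exact permutation p = 0.33, adjusted p = 0.50). At other tag sites the shares were 79.2% and 76.3% in control and 85.5% and 85.2% in FOXD2 libraries, also without overlap, with means of 77.8% ± 2.0 and 85.4% ± 0.23 (SD, n = 2), a difference of 7.58 points (exact permutation p = 0.33, adjusted p = 0.50). Whether the difference at unmarked sites exceeds that at other tag sites was not tested. Within 1 kb of unmarked sites the H3K27ac groups overlapped, at 4.71% and 2.18% in control and 4.19% and 8.03% in FOXD2 libraries. Within 10 kb they did not, at 49.1% and 40.6% against 54.5% and 63.1%. The lists held 129995 and 85832 peaks in control and 85122 and 141008 in FOXD2 libraries, and the part of list length was not tested beyond the values at equal length. At equal length the difference was 8.77 points, with histone peaks of −log10 q of 5 or more 7.39 points, and without FOXD2 replicate 2 it was 6.95 points. The pattern of both FOXD2 lists and neither control list held for 42 unmarked sites (3.66%), beside 4.17% of all tag sites, and its reverse for 11 (0.96%), beside 0.945%. These shares are near those of all tag sites. H3K4me3, with 1 library per group and hence no replicate check, lay within 5 kb of 8.20% of unmarked sites in control and 7.68% in FOXD2 cells. The rule read these same histone lists over the sites, so the flanks are not fully separate from it.

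**Figure D3:**
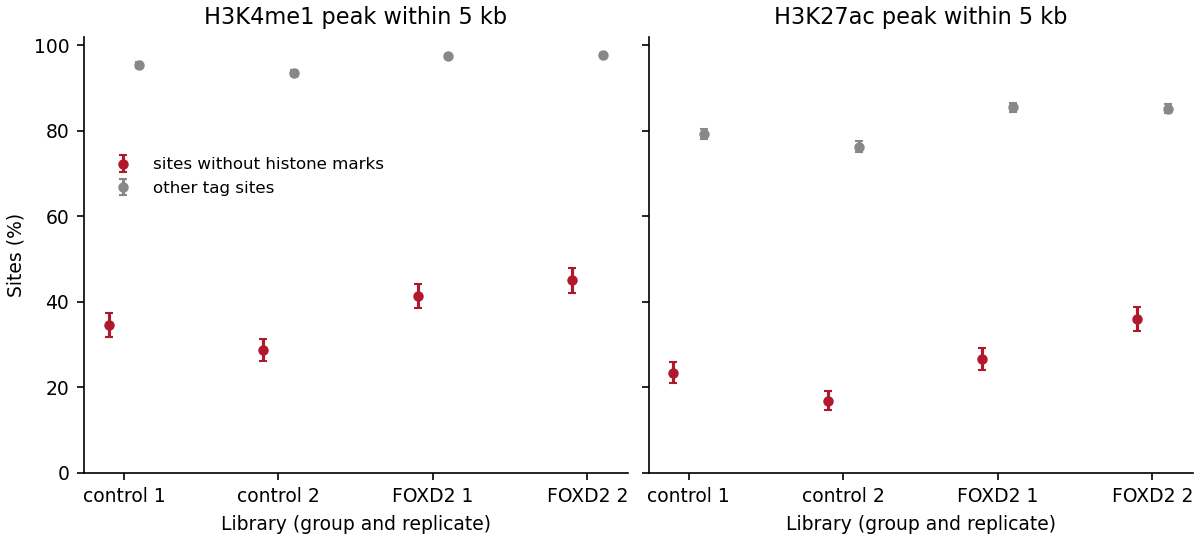
Share of sites (percent) with an H3K4me1 peak (left) or an H3K27ac peak (right) within 5 kb, for each control and FOXD2 library; points are single libraries and bars 95% Wilson intervals over sites. Unmarked sites lie at 28.7% to 45.0% for H3K4me1 and 16.8% to 36.0% for H3K27ac, and other tag sites at 93.5% to 97.7% and 76.3% to 85.5%.

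MLL4, whose lists the choice of sites did not read, was nearly absent. The choice did sort sites by histone peaks, among them H3K4me1, which MLL4 places, so the contrasts below are not separate from it. A peak lay over 3 of 1146 unmarked sites in at least 1 of the 4 MLL4 lists (0.262%, 0.0891 to 0.767), beside 30.9% of all tag sites and 39.1% of the other tag sites. Control replicates 1 and 2 had a peak at 1 and 0 unmarked sites, and FOXD2 replicates 1 and 2 at 2 and 0. The corresponding shares of other tag sites were 26.99%, 25.04%, 21.96% and 11.4%. The share was lower at unmarked sites in 4 of 4 lists, with a mean difference of -21.3 points ± 6.9 (SD, n = 4) and an exact two-sided sign-flip permutation p of 0.13, the smallest that 4 lists allow. Against H3K4me1 sites, the difference was -13.9 points ± 4.5 (SD, n = 4, exact permutation p = 0.13, lower in 4 of 4). Adjusted over 4 such comparisons the p stayed at 0.13. With lists cut to equal length, the difference from other tag sites was -11.7 points. The number with MLL4 was 5 without 6xHis replicate 1, 6 without 6xHis replicate 2 and 1 without FOXD2 replicate 1 of MLL4.

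The gap extended to the surroundings of the sites. An MLL4 peak lay within 5 kb of 3.66%, 2.27%, 4.19% and 0.785% of unmarked sites in control replicates 1 and 2 and FOXD2 replicates 1 and 2. For H3K4me1 sites the shares were 31.0%, 33.5%, 26.3% and 15.5%. The nearest MLL4 peak of any list was at a median of 19236 bp from an unmarked site. FOXD2 replicate 2 has the shortest list, with 4676 peaks, and gave the lowest shares in each class within 5 kb. Between FOXD2 and control libraries the share over unmarked sites differed by 0.0436 points (exact permutation p = 1), which rests on 3 sites and changes sign under other settings. Within 5 kb, the means were 2.97% ± 0.99 in control and 2.49% ± 2.4 in FOXD2 libraries (SD, n = 2, exact permutation p = 1).

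**Figure D4:**
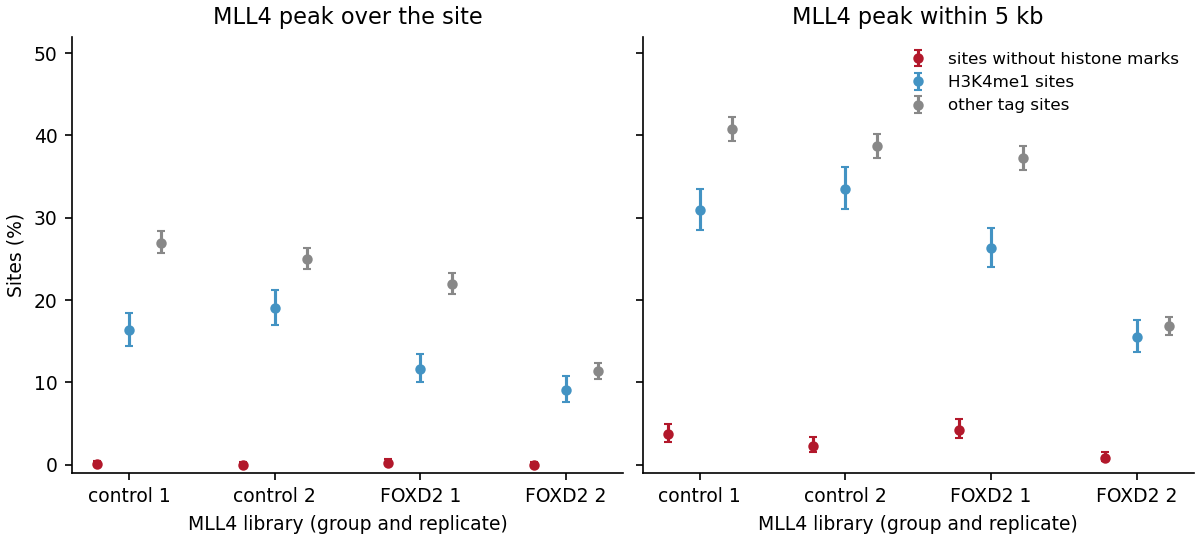
Share of sites (percent) with an MLL4 peak over the site (left) or within 5 kb (right) in each of the 4 MLL4 libraries; points are libraries and bars 95% Wilson intervals over sites. Unmarked sites lie at 0 to 0.175% on the left and 0.785% to 4.19% on the right, below H3K4me1 sites and other tag sites in every library.

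The 3 unmarked sites with MLL4 were unlike one another. The site in EWSR1, an RNA-binding protein gene rearranged in Ewing sarcoma, was the widest of all unmarked sites, at 12946 bp, and met a peak of control replicate 1. The RPTOR site, chr17:80587059-80587967, whose overlap with a start window is printed above, met a peak of FOXD2 replicate 1. The other one lay 84.9 kb from PAX2, a developmental transcription factor gene, and also met FOXD2 replicate 1. None of the 1146 had an MLL4 peak in more than 1 list.

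Unmarked sites included strong and weak tag peaks, and by −log10 q, though not by fold, they ranked somewhat lower than other tag sites in 3 of 4 lists. Ranked by −log10 q within each list, where a low percentage means a strong peak, they had medians of 21.1%, 30.8%, 21.8% and 26.9% in 6xHis replicates 1 and 2 and FLAG replicates 1 and 2. The other tag sites had 19.2%, 28.7%, 23.6% and 19.1%. FLAG replicate 1 had the opposite order, and the widest gap was in FLAG replicate 2. Median deposited folds, in the same order of lists, were 4.64, 4.90, 4.48 and 4.79 at unmarked sites. At other tag sites they were 4.56, 4.84, 4.37 and 4.91, so by fold the unmarked sites were lower only in FLAG replicate 2. Among the top 100 tag sites by rank over all lists 19 were unmarked, and among the top 1000 there were 177. Where each list had a single peak, the 4 summits spanned a median of 420 bp at 860 unmarked sites, against 364 bp at other tag sites. They lay within 200 bp of one another at 20.8% of these unmarked sites (18.2 to 23.7) and at 25.3% of the others. These values come from the lists that chose the sites and carry no test.

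The 20 best ranked unmarked sites lay in 16 genes. HSPH1, HSPA9, RSRC2 and ST13, the last a co-chaperone of HSP70, held 2 each. DNAJA1 and DNAJA4, both HSP40 co-chaperones, and PPID, a cyclophilin that binds HSP90, held 1 each. Of these, HSPH1, HSPA9 and DNAJA1 belong to the heat shock and chaperone list described next, and DNAJA4, PPID and ST13 do not. EWSR1, RBM39 and SMNDC1, which act in RNA binding and splicing, held 1 each. The rest lay in GPN1, EDRF1, MED13, RNF139, FAM91A1 and IARS1. The DNAJA1 site, chr9:33032190-33039294, spanned 7105 bp of a gene of 14.6 kb and had deposited folds of 6.49 and 8.12 for 6xHis and 6.97 and 6.68 for FLAG. The wider HSPA9 site, 5928 bp from chr5:138557089-138563016, had 7.58 and 8.31 for 6xHis and 6.11 and 7.78 for FLAG. The RNF139 site lay only 236 bp and the DNAJA4 site 371 bp from a histone peak.

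Among 13 gene lists, that of heat shock and chaperone genes held the most unmarked sites. Of 24 heat shock and chaperone genes, 10 had an unmarked site, 41.7% beside 3.73% of all protein-coding genes, and 29 sites in all. Other tag sites were also frequent there, with 16 of the 24 (66.7%) holding one, beside 13.1% of all protein-coding genes. Of the 24, 23 carried H3K4me3 at a gene end in both lists. They were led by HSPH1, HSPA9 and DNAJA1, followed by HSP90B1, the HSP90 of the endoplasmic reticulum, HSPD1, the mitochondrial HSP60, CCT5 and CCT2 of the cytosolic chaperonin, and HSPA4L, an HSP110 protein. CCT2 and HSPA9 had 5 sites each. This list, and the splicing and p53 lists, were drawn up knowing earlier results on these tag sites, so their counts are descriptions.

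Splicing and translation genes also held unmarked sites. Of 25 hnRNP and SR splicing factor genes, 8 (32%, beside 3.73% of all protein-coding genes) had an unmarked site (HNRNPC, TRA2A, HNRNPA3, SRSF6, SRSF4, HNRNPM, SRSF10 and HNRNPD), and 20 (80%, beside 13.1%) had another tag site. HNRNPC had 1 unmarked site beside 17 others, so it stood apart from TRA2A, with 4 and 3. Of 21 translation factor genes, 5 (23.8%) had an unmarked site and 10 (47.6%) another tag site, beside the same 3.73% and 13.1%. EIF3A, a subunit of the initiation factor that recruits the small ribosomal subunit, held 5 unmarked sites. EIF2S2 and EIF4G2 held 3 each, and EIF5 and EIF3E 2 each.

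Of 20 p53 target genes, 6 (30%) had an unmarked site and 6 (30%) another tag site, beside 3.73% and 13.1% of all genes. Those with an unmarked site were MDM2, TNFRSF10B, RRM2B, XPC, TIGAR and CDKN1A. MDM2 accounted for 6 of the 12 sites, and the CDKN1A site lay 334 bp beyond that gene, which encodes a cell cycle inhibitor. Of 17 genes of H3K4 methyltransferase complexes, 2 (11.8%) had an unmarked site and 5 (29.4%) another tag site, beside the same 3.73% and 13.1%. KMT2A had 1 unmarked site and RBBP5 had 2. Of 32 forkhead genes 1 (3.13%, near the 3.73% of all genes) had an unmarked site, FOXD3, 969 bp from the gene and 296 bp from a histone peak. The 20 epithelial junction and keratin genes and the 21 immediate early genes had none, and 9 and 7 of them had another tag site (45% and 33%, beside 13.1%). None fell either at the 20 mesenchymal genes, the 12 colon epithelial markers, or the 18 blood, 16 neural markers and 16 markers of fibroblasts and endothelium. In lists of this size, 0 genes with an unmarked site is near the share over all genes and is no result about them.

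Small RNA genes were sometimes enclosed. A snoRNA gene overlapped 12 unmarked sites (1.05%, 0.60 to 1.82), against 0.564% of the other tag sites. Small nucleolar RNAs guide chemical changes of ribosomal RNA and in vertebrates mostly come from introns of genes for ribosome and translation proteins. SNORD63 and SNORD63B lay in 1 unmarked site of HSPA9, SNORA105B in HSPD1, SNORA19 in EIF3A, SNORD97 in EIF4G2, SNORD11B in NOP58 and SNORA38B in NOL11. The other snoRNA genes in unmarked sites lay in KHDC4, SUPT7L, TAF1D, MED17, SLC25A3 and RBM39. The 3 sites with miRNA genes held MIRLET7D, in a site with no protein-coding gene nearer than PTPDC1 at 68.3 kb, MIR6764 in YY1, and MIR103A2 with its antisense MIR103B2 in PANK2. The let-7d and miR-103a strands printed above have different seeds. No tRNA gene overlapped an unmarked site, against 87 of the other tag sites (2.05%). Long noncoding RNA genes overlapped 3.66% of unmarked sites (2.72 to 4.92) and 15.97% of the others. The rule placed every tag site with a histone peak among the others, and its part in these contrasts was not tested.

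The unmarked sites were unevenly spread over the chromosomes. Chromosome 17 held 135 (11.8%), chromosome 8 held 94 (8.20%) and chromosome 10 held 90 (7.85%), while these chromosomes have 5.85%, 3.58% and 3.67% of the protein-coding genes. The other tag sites were also frequent there, at 8.98%, 7.101% and 6.21%. The densest 10 Mb lay from 60 to 70 Mb on chromosome 17, with 44 unmarked sites (3.84%), 111 other tag sites (2.61%) and 0.391% of genes. That stretch held 1.40% to 1.75% of all tag peaks in each tag list and 0.556% of H3K4me3 peaks. HCT116 is known to carry extra copies of parts of these chromosomes, and the part of copy number in the peak lists was not tested. Without chromosomes 8, 10 and 17 the shares of unmarked sites inside genes and far from gene ends changed by less than their intervals. Chromosome 19 held 13 unmarked sites (1.13%) for 7.26% of the genes. The X chromosome held none, nor any other tag site, and the tag lists placed only 25 to 92 peaks on it (0.0928% to 0.293%), against 2.46% of H3K4me3 peaks. The H3K4me1 lists placed 2.14% to 2.51% there, the H3K27ac lists 0.704% to 1.14%, and the MLL4 lists 0.182% to 0.796%. FOXD2 replicate 1 of MLL4 was within the range of the tag lists, and the other MLL4 lists were above it, at 0.511% to 0.796%. The cause of the low share on X was not tested.

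**Figure D5:**
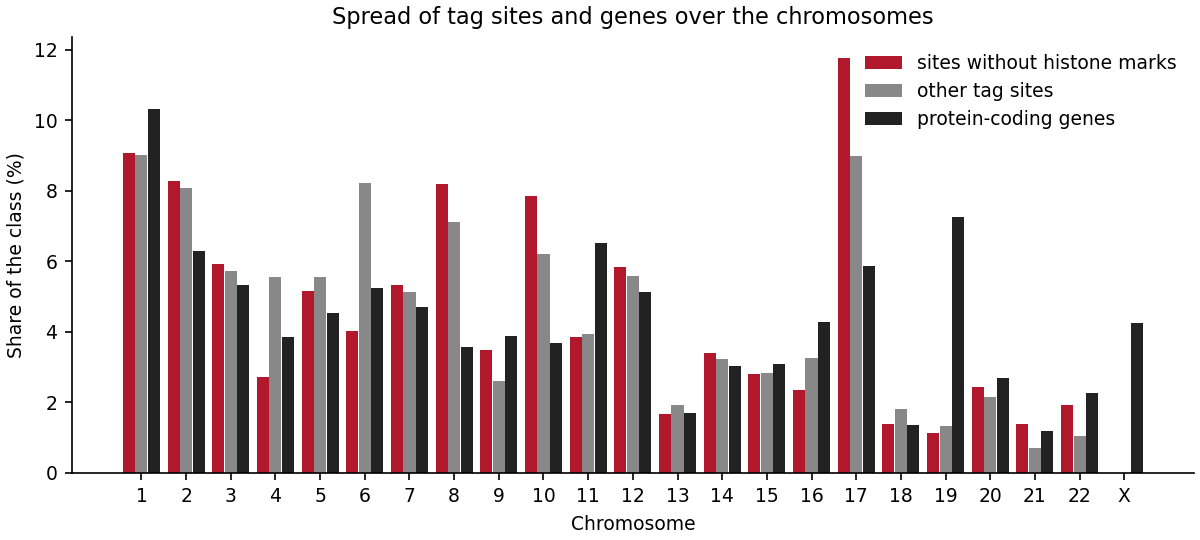
Share of unmarked sites, of other tag sites and of protein-coding genes (percent of each class) on each chromosome; bars start at 0. Chromosomes 8, 10 and 17 hold 8.20%, 7.85% and 11.8% of unmarked sites for 3.58%, 3.67% and 5.85% of genes, and X holds no tag site.

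The number of unmarked sites depended on the tag lists and on the distance kept from histone peaks. With tag peaks of −log10 q of 5 or more there were 364, and with no histone peak allowed within 5 kb there were 388. Without 6xHis replicate 2, the shortest tag list, 2157 regions met the rule in the other lists, and without FLAG replicate 2 there were 2427. The share inside genes stayed between 84.1% and 94.5% over all settings, with its lowest value without FLAG replicate 2.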

How the data were processed

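ChIP-seq of HCT116 cells gave 18 peak lists, with 7 inputs left out. Per the submitters' processing notes, reads and peaks were handled with bedtools, MACS2 2.2.7.1, Picard, Bowtie2 2.3.4.1 and cutadapt 3.4, on build hg38. Peaks were deposited separately for each library by the authors, as narrowPeak lists. Which background served a list was not found in the labels. The deposited lists hold fold enrichment as a ratio, and p-values and q-values as −log10. The largest deposited q was 0.01. Fold and −log10 q were never compared between lists.

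Only chromosomes 1 to 22 and X were used. Tag lists were merged (gap 0 bp), and overlap meant at least 1 bp. Genes came from the RefSeq table of build GRCh38.p14, with 19974 protein-coding genes; a site went to the nearest of them, up to 100 kb away, and, where several contained it, to the one with the closest end. That table gives no strand, so gene ends replaced start sites, and strand came from the 15812 genes with a start window. Shares carry 95% Wilson intervals, and libraries were compared by exact permutation tests. Named sites and genes followed a fixed rule: the 20 best sites by summed ranks, the 10 genes with most sites, sites with MLL4 or a start window, and up to 8 genes of each of 13 lists (252 genes, all found). The sites, lists and tests were chosen with earlier results of these data known. The comparisons of flanks were added after seeing the data. The steps were tested on simulated lists. Python 3.11.15, numpy 2.4.6, pandas 2.3.3, scipy 1.17.1 and matplotlib 3.10.9 were used.

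Alternatives were stricter tag, histone and MLL4 peaks (−log10 q at least 5), lists cut to equal length, peaks joined across 500 bp, overlap by 50% of the shorter interval, no histone peak within 1 or 5 kb, widths of 300 to 2000 bp, gene limits of 20 and 0 kb, each library left out and a replicate block. Annotated start sites in place of gene ends, a version without chromosomes 8, 10 and 17, and crossed replicate numbers were added after seeing the data.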

Additional observations from a re-analysis of the deposited data

How the results depend on the processing

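MLL4 was lower at unmarked than at other tag sites under every alternative run, with differences of -23.7 to -11.7 points, and of -24.6 to -17.1 points when 1 library was left out. The FOXD2 minus control difference in MLL4 at unmarked sites, 0.0436 points, had no stable sign. It was -0.137 with stricter tag peaks, -0.0814 with overlap of 50%, -0.0605 without chromosomes 8, 10 and 17, and 0 with stricter MLL4 peaks, equal list lengths, a merging gap of 500 bp or no histone peak within 1 or 5 kb. Leaving out 1 library gave -0.0436 to 0.131, and -0.0206 without FLAG replicate 2. The number of unmarked sites with MLL4 was 1 with stricter tag peaks and without the 3 chromosomes, 5 with stricter histone peaks, and 0 with stricter MLL4 peaks, equal lengths or no histone peak within 1 or 5 kb. It was 1 to 6 with 1 library left out.

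The number of unmarked sites was 364 with stricter tag peaks, 388 with none within 5 kb and 1146 to 2427 with 1 library left out, at 252, 282 and 745 to 1503 genes. The share inside genes was 94.5% with stricter tag peaks and 84.1% to 91.5% with 1 library left out. The share far from gene ends was 79.4% with stricter tag peaks, 88.4% with no histone peak within 5 kb, 85.9% for widths of 300 to 2000 bp and 82.7% to 84.5% with 1 library left out. H3K4me3 at the ends of genes with an unmarked site was 96.4% with stricter tag peaks, 94.2% at equal lengths, 94.8% by annotated start sites and 86.9% to 92.6% with 1 library left out. The cause of these shifts was not tested. For 22 named genes, 484 of 550 counts of unmarked sites stayed within 1.5 times and 66 did not, of which 23 were 0, including those of genes on the chromosomes left out.

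The flank differences kept their direction under every alternative run, from 6.06 to 12.9 points for H3K4me1 and 7.39 to 12.8 for H3K27ac. With 1 library left out they were 8.49 to 14.7 and 6.95 to 15.8 points. Same-numbered libraries showed little correlation of their deviations (0.0607 for MLL4, -0.0395 for H3K4me1 and -0.114 for H3K27ac). Such correlations cannot show whether libraries were prepared as pairs. The MLL4 inputs carry replicate numbers in both groups, so same-numbered MLL4 libraries may belong together. A replicate block left the differences at 0.0436, 11.5 and 11.2 points and changed no call, with an exact p of 0.50 at best for 2 pairs. Crossing the numbers for H3K27ac, tried after seeing the data, gave the same 42 and 11 unmarked sites by construction.

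Peak lists give no read depth, so a site without a called peak is not shown to lack the mark. Histone marks were not profiled in the tagged cells. Native and crosslinked libraries differ in how they sample chromatin, and the absence of an untagged control limits what the tag lists can show.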
